A study of Homo sapiens with 66 samples.

Results

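Most human protein-coding genes carry introns, and the genes described here are expressed genes that do not: 144 nuclear protein-coding genes whose Ensembl canonical transcript (GENCODE 44, GRCh38) has 1 exon, taken from 58051 genes with counts. A gene was taken when its mean over the 3 untreated AID-FLAG-NXF1 libraries was at least 2 CPM (counts scaled to the total of the library). The rule left out by symbol histones, ribosomal proteins (RPL, RPS), zinc finger and developmental factors (ZNF, ZBTB, FOX, SOX, KLF), FZD receptors, the JUN, IER and CEBP genes, KCTD, HSPA, NRARP and RANBP6. The left-out group held 79 tested 1-exon genes. For 33 of the 144 a spliced transcript is annotated beside the canonical one. All 144 genes were among the 17812 genes tested, of which 12849 were protein-coding genes with introns. At the bound of the rule, TTC30B (2.12 CPM) and B3GALT4 (2.19 CPM) were just inside, and TMEM81 (1.95 CPM) and KRTAP2-3 (1.88 CPM) just outside. The 144 genes were thus selected on a measured level, in libraries that are also the controls of the NXF1 comparison, and that comparison is given as a description with no test.

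An mRNA leaves the nucleus bound to the export receptor NXF1, which docks at the nuclear pore. Splicing deposits proteins that recruit the TREX export complex, so an RNA that is never spliced reaches NXF1 without that step. TREX-2, a complex built on the scaffold GANP (gene MCM3AP), sits at the nuclear basket of the pore, where TPR, NUP153 and NUP50 are the basket nucleoporins. RANGAP1 activates the GTPase cycle of Ran, which powers most protein transport but not bulk mRNA export.

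DLD-1, a line of human colorectal cancer cells, gave RNA-seq libraries, with 3 in each of 22 groups and 66 in all, which the study describes as independent biological replicates. In each tagged line both alleles of a gene carry an auxin-inducible degron (AID), a peptide that leads to breakdown of the protein once auxin is added, and the lines were homozygous clones made by CRISPR/Cas9 that also express the TIR1 ligase from the RCC1 locus. Each comparison set cells with 1 mM auxin against untreated cells of the same line: AID-FLAG-NXF1 (2 h), AID-HA-GANP1 (3 h), AID-NeonGreen-TPR (2 h), NUP153-NeonGreen-AID (2 h and 8 h), NUP50-NeonGreen-AID (3 h and 9 h), GAP1-NeonGreen-AID (RANGAP1, 2 h and 8 h) and the parental line, labelled original (2 h). A second set of AID-NeonGreen-TPR libraries, whose replicates are labelled old, held untreated cells and auxin for 2 h and 8 h, and the same line was given actinomycin D (ActD, which blocks transcription) for 2 h with or without auxin. The later and earlier time points of the old TPR set, of NUP153, of NUP50 and of RANGAP1 share their untreated libraries.

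Library totals ran from 18943661 to 55411411 counts (median 32285399.5), of which the 144 genes took 0.167% to 0.496%. Of 11 epithelial markers 8 had a median above 1 CPM while CDX1, GPA33 and LGALS4 did not, and their sum was 5674 to 15890 CPM. Of 9 markers of blood, endothelial and stromal cells only VWF had a median above 1 CPM, COL3A1 and DCN had a median of 0, and their sum was 1.74 to 14.4 CPM. The RNA of the tagged genes moved by −0.06 to 0.29 on the log2 scale with auxin, so RNA does not report on the loss of the protein. In the parental line, labels and data disagreed: CYP1A1, an enzyme gene driven by the aryl hydrocarbon receptor, had a log2 change of 1.14 to 6.68 with auxin in the tagged lines without ActD, but was at 14.5, 14.0 and 9.55 CPM in the parental libraries labelled auxin and at 201.1, 179.3 and 171.1 CPM in those labelled untreated. They are therefore called by their labels below. The libraries were counted in 3 ways, recognised by which genes never have a count. In the 24 libraries of NXF1, GANP, TPR and the parental line all 144 genes had counts. In the 33 libraries of the old TPR set, ActD, NUP50 and NUP153, 12 of the 144 genes were always at 0, and 10 of these 12 overlap an exon of another gene. In the 9 RANGAP1 libraries 4 were always at 0. These genes are left out of medians of change there. The medians of differences between lines, given further below, take in all 144 genes, also those without counts. CPM values are not scaled by transcript length and are compared here only within a gene, apart from choosing or ranking genes by level.

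Of these genes CLDN4, PPP1R3D, MARS2 and FUT4 return in most of the results below, and the sequences around their start and end are shown because no intron of the canonical transcript lies between them. CLDN4 encodes claudin-4, a strand protein of tight junctions, PPP1R3D a subunit that targets protein phosphatase 1 to glycogen, MARS2 the mitochondrial methionyl-tRNA synthetase, and FUT4 a fucosyltransferase that makes Lewis x glycans. The windows run from 120 bases before to 30 bases after the RefSeq start (GRCh38.p14, gene strand), with GC boxes (GGGCGG) and CCAAT boxes, on either strand, in capitals. CLDN4 is at chr7:73830876-73831025 (+), PPP1R3D at chr20:59940276-59940425 (−), MARS2 at chr2:197705249-197705398 (+) and FUT4 at chr11:94543801-94543950 (+).
CLDN4 start: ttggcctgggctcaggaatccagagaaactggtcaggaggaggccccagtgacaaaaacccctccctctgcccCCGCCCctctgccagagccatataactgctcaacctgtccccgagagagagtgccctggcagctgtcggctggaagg
PPP1R3D start: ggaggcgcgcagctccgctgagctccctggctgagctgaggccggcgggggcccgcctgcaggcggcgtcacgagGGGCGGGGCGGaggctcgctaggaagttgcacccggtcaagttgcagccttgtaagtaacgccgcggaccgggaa
MARS2 start: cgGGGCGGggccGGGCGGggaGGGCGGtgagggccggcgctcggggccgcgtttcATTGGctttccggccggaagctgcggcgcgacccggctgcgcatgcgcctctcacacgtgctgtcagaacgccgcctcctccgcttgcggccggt
FUT4 start: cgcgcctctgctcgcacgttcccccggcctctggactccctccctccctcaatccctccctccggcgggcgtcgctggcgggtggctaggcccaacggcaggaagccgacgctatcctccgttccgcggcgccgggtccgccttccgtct
The CLDN4 window holds 1 GC box, PPP1R3D 2 that overlap and MARS2 3 with 1 CCAAT box, whereas FUT4 holds none. GC content was 62%, 72%, 76.7% and 73.3% in that order. RefSeq promoters were found for 115 of the 144 genes. In the same 150-base window, from 120 before to 30 after the start, 58.3% held a GC box, 24.3% a CCAAT box and 3.48% a TATA box (TATAAA). The shares over 10253 tested genes with introns were 59.4%, 25.3% and 2.94%. Over all 27303 promoters of the RefSeq table they were 36.0%, 23.2% and 6.58%. These matches describe letters in the window and not binding.

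The last 30 bases of the canonical transcripts follow, with the poly(A) signal (AATAAA, or ATTAAA) in capitals, at chr7:73832661-73832690 (+), chr20:59936663-59936692 (−), chr2:197708366-197708395 (+) and chr11:94549866-94549895 (+).
CLDN4 end: cAATAAAtgggacctgtgcacaggaggaaa
PPP1R3D end: ggcaaaAATAAAttttgtcattgtgcctca
MARS2 end: ATTAAAgtttaaaagttcgtaagtacctta
FUT4 end: acaaaatgATTAAAataatgagatggaaaa
CLDN4 and PPP1R3D end on AATAAA, MARS2 and FUT4 on ATTAAA. Within the last 50 bases, 94 of the 144 genes (65.3%) held AATAAA and 116 (80.6%) held either form. Tested genes with introns gave 65.4% and 80.3%, and the 79 left-out 1-exon genes, which hold the histones, gave 29.1% and 31.6%.

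Auxin for 3 h in the GANP line lowered most of these RNAs. The 144 were not chosen on these libraries. Of the 144 genes 88 (61.1%) fell and 0 rose by the call used throughout, an adjusted p under 0.05 in edgeR's quasi-likelihood test (Benjamini-Hochberg over all 17812 tested genes) with a fold of at most 0.7 or at least 1.3. Of all tested genes 11.5% were called lower. The median change of the 144 was −0.81 on the log2 scale (fold 0.571) against 0.01 for all tested genes, and 131 of 144 were below 0. The genes' joint share of counts was 0.249% to 0.276% with auxin and 0.433% to 0.472% without. In bulk RNA, fewer cells that hold an RNA and less RNA per cell cannot be told apart. The count was 83 to 90 when each library was left out in turn.

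CLDN4 fell the most. It stood at 22.9, 27.9 and 26.8 CPM with auxin and at 108.2, 123.3 and 129.9 CPM without, 4.33-fold lower (log2 −2.11, SE 0.10, adjusted p 1.1e-06, edgeR). All 3 auxin libraries lay far below the 3 untreated ones. HPS6, a subunit of the BLOC-2 complex that builds lysosome-related organelles, stood at 8.74, 7.51 and 8.53 CPM against 35.0, 34.9 and 36.0 CPM (log2 −1.99, SE 0.090). ZCCHC3, a zinc finger protein that helps sense foreign nucleic acid, stood at 7.83, 10.1 and 7.52 CPM against 31.2, 37.9 and 33.4 CPM (log2 −1.91, SE 0.12). MARS2 stood at 5.89, 5.80 and 5.77 CPM against 20.6, 20.1 and 22.1 CPM (log2 −1.74, SE 0.090). In these 4 genes the untreated values were at least 3-fold the auxin values.

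The other large falls were spread over many functions. CLDN23, a further claudin, fell by 1.99 on the log2 scale and KLHDC7A by 1.96. BORCS6, a subunit of the lysosome-positioning complex BORC, fell by 1.88 and CCDC71L by 1.82. FRAT2, a GSK3-binding protein of Wnt signalling, fell by 1.75. DDX28, a helicase of the mitochondrial ribosome's assembly, and KBTBD6, a CUL3 ubiquitin ligase adaptor, each fell by 1.72, and FUT4 fell by 1.70. The adjusted p of these 8 genes was 5.01e-05 or smaller (edgeR). FJX1, the human homologue of the fly kinase four-jointed and an RNA the study followed, fell from 24.1, 31.6 and 29.9 CPM to 12.7, 14.0 and 13.6 CPM (log2 −0.98, SE 0.11, adjusted p 0.0001, edgeR).

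Of the 5 genes of highest mean CPM in the untreated NXF1 libraries 2 fell. EID1, an inhibitor of the acetyltransferase p300, stood at 170.6, 130.1 and 116.6 CPM with auxin and 158.2, 135.2 and 128.5 CPM without (log2 0.09, SE 0.13), and the groups overlapped. HNRNPA0, a protein that binds AU-rich RNA, gave log2 −0.28 (SE 0.11, adjusted p 0.0755, edgeR). RBM15B, a subunit of the m6A writer complex, gave log2 −0.34 (SE 0.086, adjusted p 0.0142, edgeR), too small a fold for a call. RHOB, a small GTPase, fell by 1.37 and FEM1A, a CUL2 ubiquitin ligase receptor, by 1.03. FEM1A shares exon bases with another gene and stood at only 11.7, 11.6 and 12.4 CPM in the old untreated TPR libraries. C15orf62 was the only gene of the 144 with an adjusted p under 0.05 above 0: it stood at 13.2, 20.7 and 13.2 CPM against 13.1, 11.3 and 7.67 CPM (log2 0.67, SE 0.20, adjusted p 0.030, edgeR). It is not among the calls because it was also called in the parental line.

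**Figure D1:**
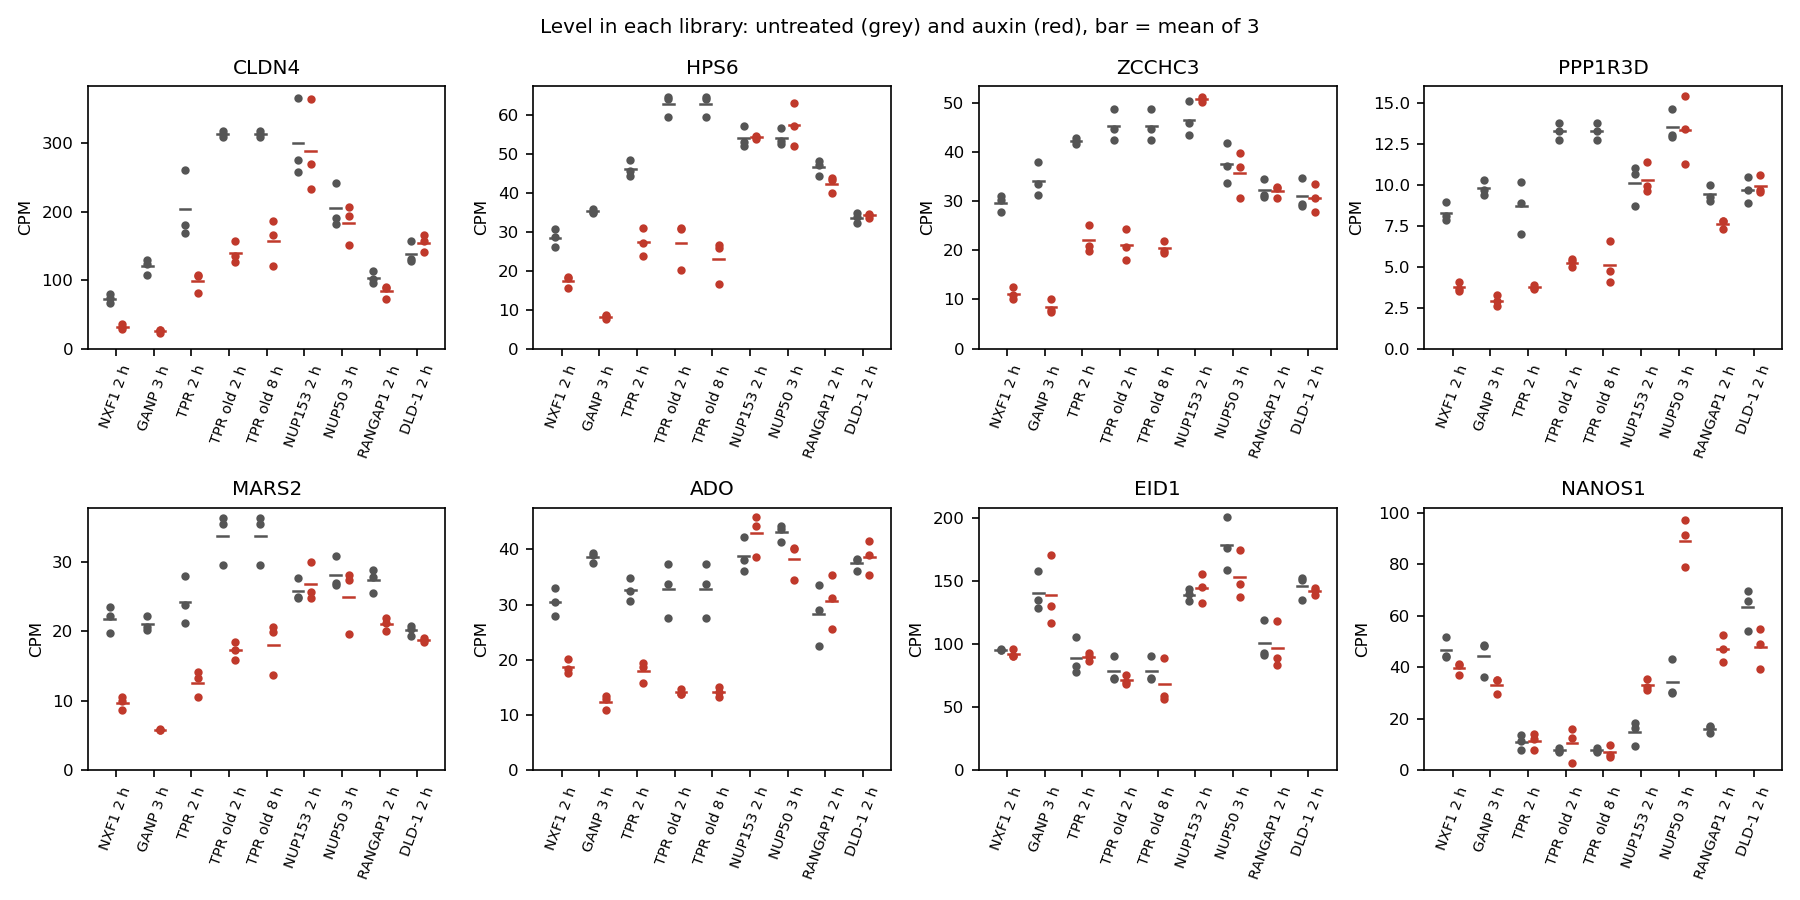
Levels (CPM, y axes) of CLDN4, HPS6, ZCCHC3, PPP1R3D, MARS2, ADO, EID1 and NANOS1 in 9 comparisons, with a point for each library (untreated grey, auxin red) and a bar at the mean of 3. In the GANP line the auxin points of CLDN4 (22.9 to 27.9 CPM) lie below its untreated points (108.2 to 129.9 CPM), while the EID1 points overlap.

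The GANP calls were counted by function, where 61.1% of all 144 genes and 11.5% of tested genes were called lower. Of 8 genes of cell adhesion, junctions and the cytoskeleton, 6 fell, among them CLDN4, CLDN23, AMIGO3 (log2 −1.12), a leucine-rich repeat adhesion protein, and FAM43A (log2 −0.55). Their median was −1.13. FAM43A also gave log2 −0.85 in the parental line as labelled and 0.82 with NUP153 at 2 h, without a call in either. Its change with GANP was not called different from that in the parental line (adjusted p 0.324, edgeR interaction). AMIGO3 shares exon bases with another gene and stood at 0.081, 0 and 0.036 CPM in the old untreated TPR libraries. Whether its fall belongs to that other gene was not tested. Of 10 receptors and signalling proteins 7 fell (median −0.84), among them RHOB, PPP1R3D (log2 −1.63), FJX1 and KCNJ11 (log2 −1.06), the pore subunit of the ATP-sensitive potassium channel. Of 12 genes of metabolism, glycosylation and transport 8 fell (median −0.66), among them FUT4 and BLOC1S4 (log2 −1.12), a subunit of the organelle complex BLOC-1. Of 9 genes of the ubiquitin system and protein folding 6 fell (median −0.79), among them KBTBD6, the deubiquitinase USP27X (log2 −1.60) and the CUL3 adaptor KLHL9 (log2 −0.79). Of 16 genes of RNA processing, ribosomes and translation 8 fell (median −0.79), among them ZCCHC3, MARS2 and DDX28, while NANOS1, a translational repressor, gave log2 −0.31 without a call. Of 16 genes of transcription and chromatin 8 fell with a smaller median of −0.52. EID1, TIGD1 (log2 0.16) and TSPYL4 (log2 −0.47) of that list were not called. PURA is on both the transcription and the RNA list. The 74 genes on no list gave 45 falls and a median of −0.88. The median over all tested genes was 0.01.

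Auxin for 2 h in the TPR line lowered these RNAs too, with fewer of them past the bounds. Of the 144 genes 19 (13.2%) fell and 0 rose, against 0.404% of all tested genes called lower. The median was −0.35 on the log2 scale (0.01 over all tested genes) and 134 of 144 were below 0. The joint share of counts was 0.271% to 0.306% with auxin and 0.374% to 0.393% without. With the replicate number as a block, which pairs libraries that deviate together in this line, 48 genes were called, 47 lower and 1 (HNRNPA1L2, named after its value was seen, log2 0.45) higher. Without the block, the count was 4 without auxin replicate 1 or without untreated replicate 3, 7 and 11 without untreated replicate 1 or 2, and 9 without auxin replicate 3.

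PPP1R3D fell the most, from 10.2, 7.01 and 8.89 CPM to 3.65, 3.69 and 3.89 CPM (log2 −1.19, SE 0.15, adjusted p 0.00937, edgeR). The auxin libraries nearly coincided while the untreated ones spread. USP27X stood at 1.49, 1.79 and 2.23 CPM against 4.10, 3.77 and 4.45 CPM (log2 −1.13, SE 0.18). CLDN4 stood at 81.5, 108.1 and 105.5 CPM against 168.5, 260.6 and 180.6 CPM (log2 −1.02, SE 0.17), and FRAT2 gave the same log2 change of −1.02. MARS2 and ZCCHC3 each gave −0.92. For each of them the groups did not overlap. FJX1 was not called (log2 −0.61, SE 0.17, adjusted p 0.198, edgeR), although each auxin library (9.40, 5.48 and 8.16 CPM) lay below each untreated library (13.7, 10.8 and 11.4 CPM). The study reports this RNA as lower after TPR loss, by qRT-PCR, by sequencing of newly made RNA and by in situ imaging. EID1 again overlapped between groups (log2 0.05, SE 0.092). By list, 2 of 8 adhesion genes, 2 of 10 receptors and signalling genes, 2 of 12 metabolic genes, 1 of 9 ubiquitin genes, 3 of 16 RNA and translation genes and 0 of 16 transcription genes fell, and 9 of the 74 on no list.

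The old TPR libraries gave larger median changes. After 2 h, 20 of the 144 genes (13.9%) fell and 0 rose, against 0.309% of tested genes called lower. The median over the 129 genes with counts was −0.76 and 122 of them were below 0. KLHDC7A stood at 2.07, 1.62 and 2.03 CPM with auxin and 4.99, 6.54 and 5.77 CPM without (log2 −1.49, SE 0.21). BORCS6 fell by 1.48 on the log2 scale and CLDN4 by 1.05, from 313.6, 309.0 and 318.1 CPM to 126.1, 157.4 and 135.7 CPM. After 8 h, 49 genes (34.0%) fell and 0 rose, against 2.36% of tested genes called lower, with a median of −0.92 and 120 of 129 below 0. DOLK, the dolichol kinase of protein glycosylation, stood at 4.42, 12.4 and 4.71 CPM against 23.1, 25.3 and 23.3 CPM (log2 −1.60, SE 0.35), with replicate old2 the highest of its auxin group. KLHDC7A stood at 1.37, 1.52 and 1.44 CPM at that time (log2 −1.86, SE 0.21). PPP1R3D stood at 4.74, 4.09 and 6.55 CPM against 12.7, 13.8 and 13.3 CPM, again without overlap. At 8 h 4 of 8 adhesion genes, 5 of 12 metabolic genes, 7 of 16 RNA and translation genes, 3 of 10 receptors and signalling genes, 3 of 9 ubiquitin genes and 2 of 16 transcription genes fell. Single libraries decided these counts: at 2 h the count was 10 without auxin replicate old1, 3 without untreated replicate old1 and 0 without untreated old2 or old3. At 8 h it was 21, 99 and 1 without auxin replicate old1, old2 or old3, and 7, 0 and 13 without untreated replicate old1, old2 or old3.

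All 19 genes called in the TPR line at 2 h were among the 88 called in the GANP line (100% and 21.6% of each list), and so were all 20 of the old TPR libraries at 2 h (100% and 22.7%). Of all 144 genes 61.1% were called lower with GANP, and an overlap beyond that share was not tested. The lists of the TPR line and the old set at 2 h shared 11 genes (57.9% and 55% of each): ADO, BLOC1S4, CLDN4, FRAT2, FUT4, HPS6, IRF2BP1, LCMT2, MARS2, PPP1R3D and ZCCHC3. ADO is a thiol dioxygenase, IRF2BP1 a corepressor and LCMT2 an enzyme of tRNA wybutosine synthesis. Of the GANP line's 88 genes, all 88 were below 0 in the TPR line (median −0.53), and all 79 with counts in the old TPR libraries at 2 h were below 0 (median −0.87). Of all the genes described, 134 of 144 were below 0 in the TPR line and 122 of 129 in the old libraries at 2 h. In the parental line 42 of the 88 were below 0, with a median of 0.01. Of the TPR line's 19 genes all 18 with counts in the old libraries at 2 h were below 0 (median −1.05).

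**Figure D2:**
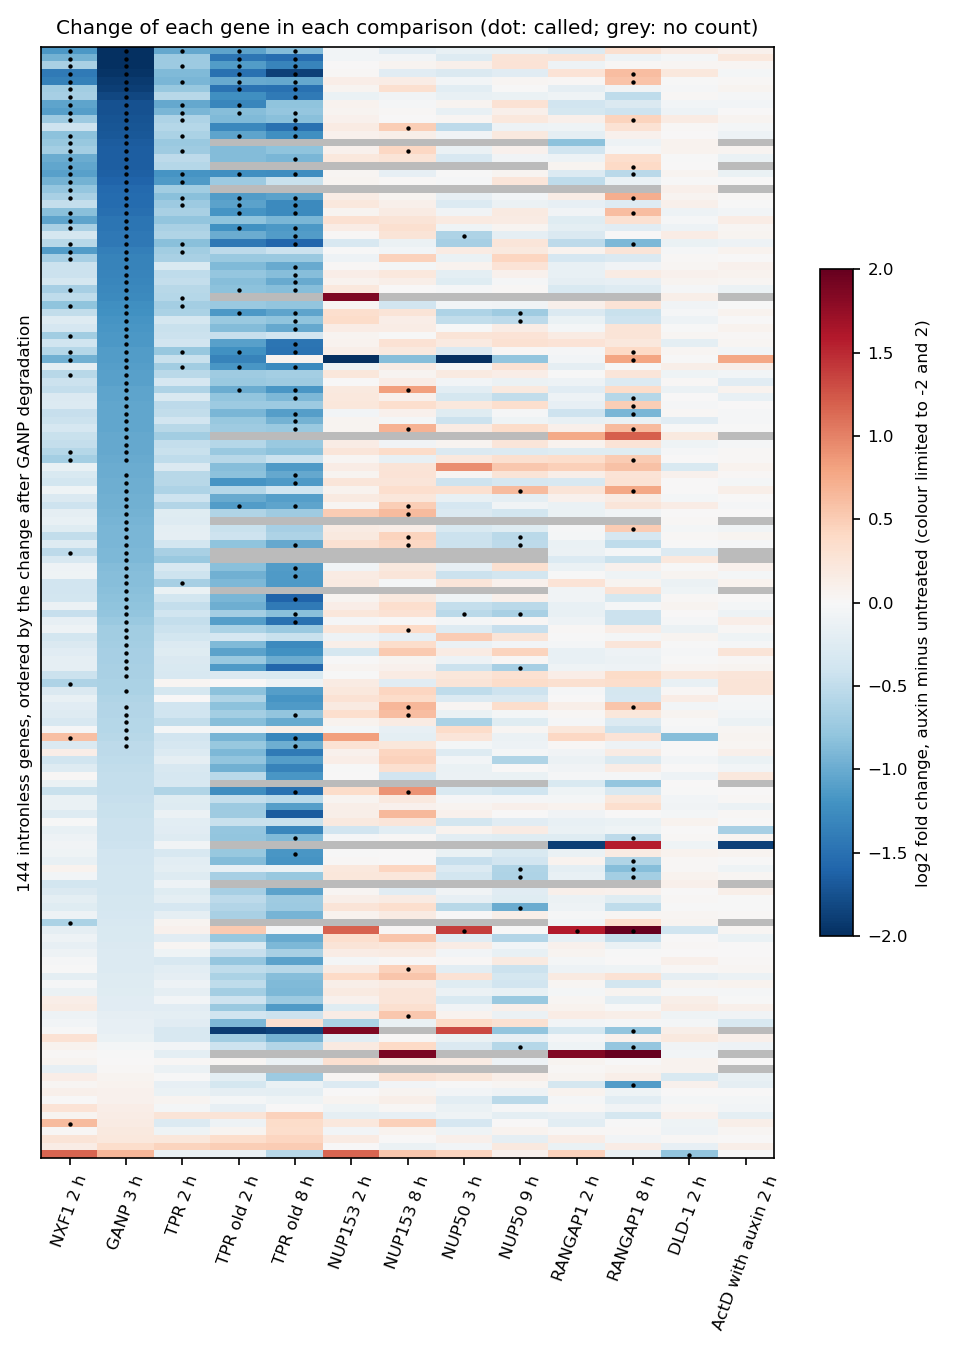
Log2 change with auxin of the 144 genes (rows, ordered by the change in the GANP line) in 13 comparisons (columns), with colour limited at ±2, a dot for each call and grey for genes without a count. The GANP column holds 88 calls, all lower, and the ActD column none. Strong colours without a dot, as for B3GALT4 in the RANGAP1 column at 8 h, can rest on very few counts.

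The falls in the GANP line at 3 h and the TPR line at 2 h were compared directly, by the interaction of auxin with line over 12 libraries. The times differ between the lines, so line and time cannot be told apart. For 43 of the 144 genes the change differed (adjusted p under 0.05, edgeR), all 43 lower in the GANP line, against 5.77% of all tested genes. HPS6 differed by −1.26 on the log2 scale (SE 0.14, adjusted p 0.000377, edgeR), CCDC71L by −1.27 and CLDN4 by −1.09. PPP1R3D gave a difference of −0.45 (SE 0.18, adjusted p 0.192, edgeR), USP27X −0.47 and FRAT2 −0.73, none of which passed. The median difference over the 144 was −0.39. The count was 28 without GANP auxin replicate 3, and 87 with the replicate block.

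**Figure D3:**
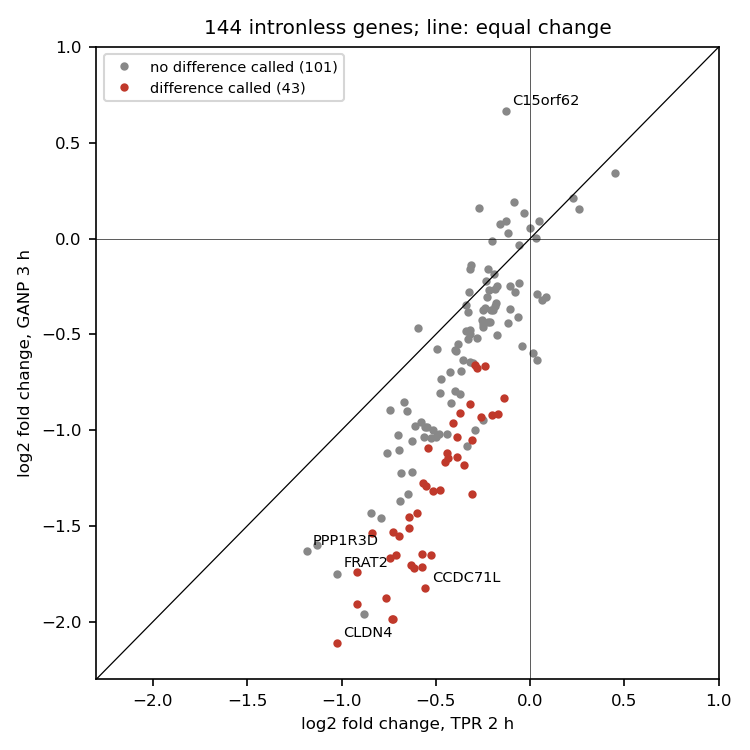
Log2 change of each of the 144 genes with auxin in the TPR line (x axis, 2 h) and the GANP line (y axis, 3 h), with the 43 genes whose change differed between lines in red. All 43 lie below the line of equal change.

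The TPR line at 2 h was set against the other lines in the same way. Of the 144 genes 32 differed between TPR at 2 h and NUP153 at 2 h (all lower with TPR, against 0.646% of tested genes). The median difference over all 144, with or without NUP153 counts, was −0.53. PPP1R3D differed by −1.23 (SE 0.18, adjusted p 0.00582, edgeR), USP27X by −1.20 and FRAT2 by −1.11. CLDN4 gave −0.98 without passing (SE 0.29, adjusted p 0.229, edgeR). Against NUP50 at 3 h 3 genes differed (0.124% of tested genes): PPP1R3D by −1.18, RHOB by −0.85 and HPS6 by −0.83. Against RANGAP1 at 2 h 5 genes differed (0.298% of tested genes): NANOS1 by −1.51, ADO by −0.99, TLNRD1 (a talin rod domain protein, named after its value was seen) by −0.95, ZCCHC3 by −0.94 and PPP1R3D by −0.92. The NUP153, NUP50 and RANGAP1 libraries were counted in other ways than these TPR libraries, and line and way of counting cannot be told apart here. With the replicate block the NUP153 and RANGAP1 counts were 89 and 52. The NUP153 count was 13 to 21 without any of TPR auxin replicate 1 or 2, TPR untreated replicate 1 or 3, or any NUP153 library other than auxin replicate 3. The NUP50 count was 0 without TPR auxin replicate 1 or 2, TPR untreated replicate 1, NUP50 auxin replicate 2 or NUP50 untreated replicate 1 or 2, 1 without TPR untreated replicate 3 or NUP50 auxin replicate 3, and 5 without NUP50 auxin replicate 1. The RANGAP1 count was 3 without TPR auxin replicate 1, TPR untreated replicate 2 or RANGAP1 auxin replicate 1, and 1 without TPR auxin replicate 2, TPR untreated replicate 1 or 3, RANGAP1 auxin replicate 2 or 3, or RANGAP1 untreated replicate 1 or 2.

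At 8 h the old TPR set was set against NUP153, which was counted in the same way, and RANGAP1, which was not, in comparisons added after the calls were seen. Against NUP153 at 8 h 84 genes differed, all lower with TPR (10.2% of tested genes differed). The median difference over all 144 genes was −1.06, where genes without a count in both sets enter as 0. Against RANGAP1 at 8 h 62 differed (11.4% of tested genes), 61 lower with TPR and 1 higher, PROB1 (log2 0.98). The second count was 41 without RANGAP1 untreated replicate 2. Between GANP at 3 h and the parental line 98 of the 144 differed (20.1% of tested genes), with the parental libraries taken as labelled, and 97 of them were lower in the GANP line. The other, C15orf62, is given no direction, since its change in the parental line has the direction of CYP1A1 there, which goes against the labels.

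In the NXF1 line, whose untreated level chose the genes, 36 of the 144 were lower and 2 higher by the same bounds after 2 h, where 5.93% of tested genes were called lower and 2.18% higher. Of 2-exon genes 23.9% were called lower. These counts only describe, since the 144 had to pass a floor on the control level that other tested genes did not. The median change was −0.29 and 123 of 144 were below 0. KLHDC7A stood at 0.877, 0.972 and 0.900 CPM with auxin and 3.24, 1.96 and 2.42 CPM without (log2 −1.42). Its untreated values lie near the bound of 2 CPM set on these same libraries, where selection favours a fall. ZCCHC3 stood at 10.2, 10.9 and 12.6 CPM against 27.7, 30.3 and 31.1 CPM (log2 −1.35). RHOB stood at 112.4, 128.1 and 150.3 CPM against 261.1, 282.6 and 339.5 CPM (log2 −1.12). CLDN4 gave −1.14, MARS2 −1.10 and PPP1R3D −1.09. TIGD1, a gene derived from a transposase, stood at 13.8, 13.1 and 14.5 CPM against 8.29, 8.59 and 10.9 CPM (log2 0.64), and FAM43A gave 0.59. FJX1 gave −0.08. When the genes were chosen by their level in the parental line in place of the NXF1 line, 149 genes were taken, of which 36 (24.2%) were lower and 2 higher. Of the 149 genes 141 are also among the 144, so this choice cannot show what the selection did.

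In the NUP153 line none of the 144 genes was called lower at either time. At 2 h 0 were called by edgeR, against 0.0225% of tested genes in either direction, and the median over 130 genes with counts was 0.09, with 102 above 0. At an unadjusted p under 0.05 there were 26 of the 144 (667 of all tested genes), DESeq2 called 2, the replicate block 2, all of them higher, and edgeR 1 without untreated replicate 3. CLDN4 stood at 269.1, 233.8 and 364.3 CPM against 275.2, 257.8 and 366.4 CPM. At 8 h 14 genes rose (9.72%) and 0 fell, against 0.915% of tested genes called higher, with a median of 0.17. TSPYL4, a nucleosome assembly family protein, stood at 9.62, 10.5 and 12.6 CPM against 6.79, 6.22 and 4.21 CPM (log2 0.90, SE 0.17, adjusted p 0.0282, edgeR). KCNJ11 stood at 10.7, 9.60 and 10.3 CPM against 5.98, 6.56 and 4.38 CPM (log2 0.83, SE 0.14). Untreated replicate 3 was the lowest of its group for both. The count at 8 h was 2 without auxin replicate 2 or 3 or untreated replicate 1, 7 without untreated replicate 2 and 9 without untreated replicate 3.

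The NUP50 line gave few calls. At 3 h 2 genes fell and 1 rose, where 0.0112% of tested genes were called lower and 0.168% higher. TRMT12, a tRNA wybutosine enzyme, stood at 12.5, 11.2 and 11.9 CPM against 19.1, 18.9 and 17.2 CPM (log2 −0.62), and KLHL9 gave −0.54. NANOS1 rose from 29.9, 30.2 and 43.0 CPM to 78.8, 97.3 and 91.2 CPM (log2 1.39, SE 0.14, adjusted p 0.000911, edgeR). At 9 h, which shares its controls with 3 h, 10 genes fell and 1 rose, where 0.146% of tested genes were called lower and 0.219% higher. SPIN4, a histone reader of the spindlin family, stood at 13.3, 13.2 and 11.7 CPM against 25.5, 23.0 and 26.3 CPM (log2 −0.99), and PLPP6, a phosphatase of isoprenoid lipids, gave −0.71. FJX1 rose, at 55.3, 53.5 and 54.7 CPM against 34.9, 32.6 and 36.2 CPM (log2 0.63, SE 0.074, adjusted p 0.00404, edgeR). NANOS1 stood at 38.8, 34.2 and 31.3 CPM at 9 h, within the range of its untreated libraries. The count at 3 h was 6 without auxin replicate 1 and 1 without auxin replicate 2 or 3 or untreated replicate 2. At 9 h it was 1 without auxin replicate 2 and 5 without untreated replicate 2.

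In the RANGAP1 line the genes moved in both directions. At 2 h 0 fell and 1 rose, NANOS1, where 0.438% of tested genes were called higher. It stood at 42.0, 47.1 and 52.3 CPM against 16.7, 17.1 and 14.3 CPM (log2 1.59, SE 0.11, adjusted p 0.000157, edgeR). NANOS1 also gave log2 1.18 with NUP153 at 2 h, without a call, so its rise was not seen in the RANGAP1 and NUP50 lines alone. Whether it follows auxin itself was not tested. With the replicate block 3 genes were called. At 8 h 11 fell and 15 rose, where 6.62% of tested genes were called lower and 8.23% higher, so that neither share of the 144 (7.64% and 10.4%) was far from the background. The median was −0.01. NANOS1 stood at 67.6, 67.9 and 68.0 CPM at 8 h, 4.35-fold above the shared controls (log2 2.12, SE 0.088, adjusted p 6.52e-07, edgeR). FJX1 rose from 22.3, 20.7 and 23.7 CPM to 36.3, 35.0 and 39.3 CPM (log2 0.77) and AMIGO3 gave 0.79. PROB1 fell by 1.12 on the log2 scale, at 1.06, 1.27 and 1.64 CPM against 2.91, 2.51 and 3.49 CPM. CREBZF, a leucine zipper factor, fell by 0.91. ADO rose from 22.4, 29.0 and 33.5 CPM to 40.4, 43.4 and 53.3 CPM (log2 0.73). PPP1R3D fell by 0.54. Of the GANP line's 88 genes 4 fell and 14 rose here.

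Auxin was also given to the parental line, which carries no degron, and to AID-NeonGreen-TPR cells together with ActD. In the parental line, with its libraries taken as labelled, 1 of the 144 genes was called, against 0.0561% of tested genes, and the median was 0.01. C15orf62 stood at 13.6, 15.6 and 12.4 CPM in the libraries labelled auxin and 23.6, 24.2 and 25.1 CPM in those labelled untreated (log2 −0.80, SE 0.085, adjusted p 0.00529, edgeR), which is the direction of CYP1A1 there. FAM43A gave log2 −0.85 in the parental line, the largest change of the 144, and NANOS1 −0.39. Neither was called, and both have the direction of CYP1A1 there. The parental count was 2 without untreated replicate 1 and 0 without untreated replicate 2. With transcription blocked by ActD, auxin gave 0 calls among the 144 genes and 0 of all tested genes (0%). There 0 of the 144 and 78 of all tested genes had an unadjusted p under 0.05, and DESeq2 called 0 of the 144. The median over 129 genes with counts was 0.01. CLDN4 stood at 177.0, 251.7 and 118.0 CPM with ActD and auxin and at 173.2, 224.9 and 113.5 CPM with ActD alone, and HPS6 at 41.3, 32.9 and 29.8 CPM against 38.2, 34.7 and 27.7 CPM. The log2 change was 0.09 for CLDN4 (SE 0.31) and −0.14 for PPP1R3D (SE 0.17). The difference between auxin with and without ActD was not tested.

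PPP1R3D was called lower with GANP, with TPR at 2 h, at both times in the old TPR libraries and with RANGAP1 at 8 h. ADO, BLOC1S4 and ZCCHC3 were lower in the same GANP and TPR comparisons and higher with RANGAP1 at 8 h. The comparisons at the 2 times of a line share its untreated libraries. Of the genes named here, KCNJ11, FEM1A, KBTBD6, NCBP2AS2, ATXN7L3B and TBCC were lower with GANP and higher with NUP153 at 8 h. The levels of FEM1A and AMIGO3 differ strongly by the way of counting, so their values are compared only within a comparison. Both share exon bases with another gene, and how far reads of that gene enter their values was not tested. RASSF10 was lower with GANP (log2 −1.43), TPR at 2 h (log2 −0.84), the old TPR libraries at 8 h (log2 −1.58) and RANGAP1 at 8 h (log2 −0.90).

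Set beside genes with introns, the 144 genes were at the end of a series in the GANP and TPR lines. In the GANP line 61.1% of them were called lower, against 45.5% of 587 genes with 2 exons, 22.1% of 1798 with 3 to 4, 10.3% of 4198 with 5 to 9 and 5.54% of 6266 with 10 or more. The medians in that order were −0.81, −0.46, −0.15, 0.02 and 0.07 on the log2 scale. In the TPR line at 2 h the shares were 13.2%, 3.24%, 0.945%, 0.0715% and 0.016%, and in the old TPR set at 8 h 34.0%, 11.8%, 4.28%, 1.74% and 1.07%. In the NXF1 line the 144 lay close to 2-exon genes, with 25% against 23.9% lower and medians of −0.29 and −0.26. The 79 left-out 1-exon genes behaved otherwise: with GANP 25.3% were lower and 44.3% higher (median 0.36), and with RANGAP1 at 8 h 48.1% were lower (median −0.50). With NUP153 at 8 h, 9.72% of the 144 were higher against 2.39% of 2-exon genes, and the left-out genes had a median of −0.30. The classes with introns hold all tested genes, without the floor of 2 CPM in untreated NXF1 libraries that the 144 had to pass. The shares and medians are descriptions of classes and were not tested against each other.

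**Figure D4:**
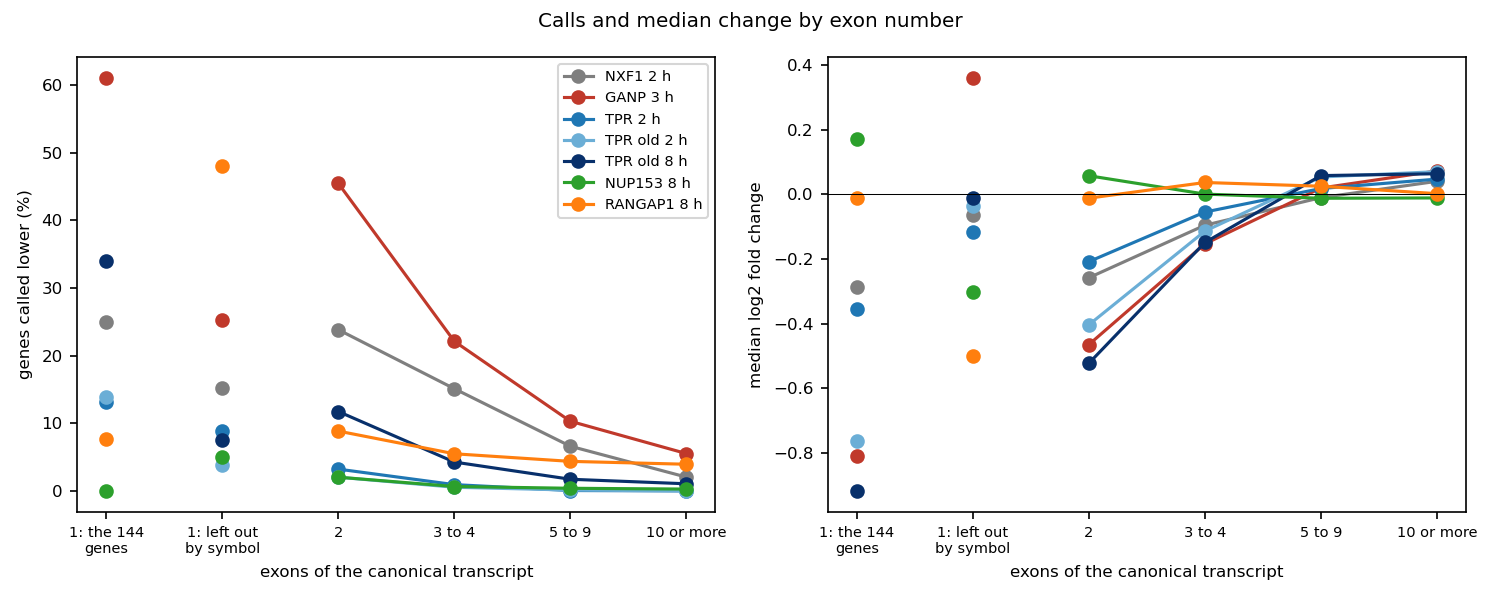
Percent of genes called lower and median log2 change in 7 comparisons, by exon number of the canonical transcript, with the 144 genes and the left-out 1-exon genes shown apart from the line through genes with introns. In the GANP line the percent called lower goes from 61.1% for the 144 genes to 5.54% for genes with 10 or more exons.

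The classes also differed in other properties. The 144 transcripts had a median length of 2787 bases and a GC content of 51.2%, 2-exon genes 2527 bases and 52.2%, and genes with 10 or more exons 4181 bases and 48.4%. With ActD alone, the log2 ratio to the old untreated TPR libraries (0.5 CPM added) had a median of −0.32 over 130 of the 144 genes, −0.31 for 2-exon genes and −0.10 over all tested genes, on a scale relative to the library. The ActD replicates are not labelled old, so ActD and label set cannot be told apart in this ratio. Among the 144, the 88 called lower with GANP had a median ActD ratio of −0.42, a GC content of 54.1% and a length of 2910.5 bases, against −0.21, 49.2% and 2391 bases for the other 56. Across genes, Spearman's rho of the GANP change was 0.49 with the ActD ratio (130 genes), −0.23 with GC content and −0.07 with level (144 genes each). For the TPR change at 2 h the values were 0.44, −0.31 and 0.01. These rho values are given as a description, since genes share the libraries and are not independent replicates, and the part of RNA lifetime in the falls was not tested.

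**Figure D5:**
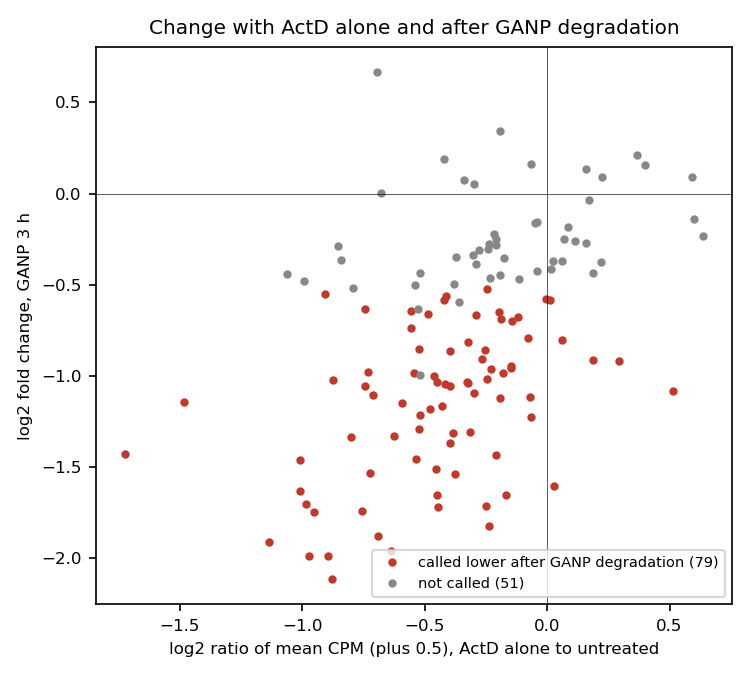
Log2 ratio of ActD alone to untreated (old TPR libraries, x axis) and log2 change with auxin in the GANP line (y axis) for 130 of the 144 genes, with the 79 called lower in the GANP line in red and the other 51 in grey. The genes called lower have a median ActD ratio of −0.42 and the others one of −0.21.

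Overlap with other genes bears on the counting. Of the 144 genes 67 share bases of an exon with another annotated gene and 77 do not. Among the GANP line's 88 genes 39 of them overlapped, against 28 of the other 56. Over the 77 genes without overlap, 49 fell in the GANP line with a median of −0.86, 32 in the old TPR set at 8 h and 12 in it at 2 h. Of the 33 with an annotated spliced transcript 15 were among the 88 and 18 among the 56. Of the genes always at 0 in some libraries, EPOP (named after its values were seen) fell in the GANP line (log2 −1.28) and the TPR line (log2 −0.57) but has no counts in the RANGAP1 libraries. It was also at 0 CPM in the old untreated TPR libraries and in those with ActD alone.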

How the data were processed

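RNA-seq was done on 66 libraries of 22 groups. The authors deposited whole-number counts per gene for each library (GRCh38), and the submitters' processing notes name CASAVA 1.8.2, STAR 2.6.1c and featureCounts 1.5.2. The reads came from a stranded total RNA kit by the study's methods, whereas the strand setting of the counting is not given in the sources used here, so reads of overlapping antisense genes cannot be told apart. Gene IDs were matched to GENCODE 44 (56948 of 58051). Which genes always had a count of 0 showed 3 ways of counting, so auxin groups were compared with their controls only within a line and label set. The ratio of ActD alone to untreated is the exception, since it crosses label sets.

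Genes with CPM above 1 in over 5% (at least 4) of the 60 libraries without ActD were tested with edgeR 4.0.16 (quasi-likelihood, TMM, limma 3.58.1, R 4.3.3), on the 6 libraries of each comparison, with Benjamini-Hochberg adjustment over all 17812 tested genes. Calls needed both an adjusted p below 0.05 and a change past 1.3-fold upward (log2 0.38) or past 0.7-fold downward (log2 −0.51). Genes called in the parental line were removed from the calls of the tagged lines without ActD, which takes C15orf62 out of the calls. Standard errors are the log2 change divided by the square root of the F statistic. Differences between lines are interaction terms over 12 libraries. The procedure was tested on simulated data. Tables and figures were made in Python 3.11.15 with matplotlib 3.10.9, scipy 1.17.1, pandas 2.3.3 and numpy 2.4.6. No column of values was left unmapped.

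The 144 genes, the functional lists and the tests were chosen with earlier results of these data known, and no list is independent evidence. The genes named are the 12 called genes with the largest fall and the 6 with the largest rise with GANP at 3 h, 6 and 3 with TPR at 2 h and NXF1, and 2 and 2 in other comparisons, all with 50 counts or more on average and groups that did not overlap. FJX1, the 5 of highest mean CPM in the untreated NXF1 libraries and those called in 4 or more comparisons were named too. So were those at the bound of the rule, up to 4 examples of each list and the tagged genes.

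Libraries of a comparison carry the same replicate numbers in both groups. Whether same-numbered libraries deviate together from their group means was checked by correlation. Each pair exceeded 0.1 in 7 of 13 comparisons: NXF1, GANP, TPR at 2 h, NUP153 at 2 h, both of RANGAP1, and ActD. There the fit with the replicate number as a block is given beside results that it moves. Alternatives were DESeq2 1.42.0, its size factors in edgeR, no filter, the block, genes chosen by parental level, genes without exon overlap and each library left out. The p-values measure only the spread between the 3 libraries of a group.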

Additional observations from a re-analysis of the deposited data

Results flagged for a closer look

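These results were picked out because the change with auxin differed between lines by the interaction test. Between GANP at 3 h and TPR at 2 h 43 of the 144 genes differed, among them CCDC71L (−1.27 on the log2 scale, GANP minus TPR), CLDN23 (−1.27), HPS6 (−1.26), KBTBD6 (−1.15), BORCS6 (−1.12), DDX28 (−1.11), CLDN4 (−1.09), FUT4 (−1.08), ZCCHC3 (−0.998) and MARS2 (−0.83). Between TPR and NUP153 at 2 h 32 differed, among them PPP1R3D (−1.23, TPR minus NUP153), USP27X (−1.20), FRAT2 (−1.11), ZCCHC3 (−1.05), MARS2 (−0.98), HPS6 (−0.75) and FUT4 (−0.73). Between TPR at 2 h and NUP50 at 3 h 3 differed, among them PPP1R3D (−1.18) and HPS6 (−0.83). Between TPR and RANGAP1 at 2 h 5 differed, among them NANOS1 (−1.51), ZCCHC3 (−0.94) and PPP1R3D (−0.92). Between GANP at 3 h and the parental line 98 differed. Between the old TPR libraries and NUP153 at 8 h 84 differed, and against RANGAP1 at 8 h 62, among them NANOS1 (−2.14) and FJX1 (−1.16). FJX1 was the single RNA here that fell with GANP and rose with both NUP50 at 9 h and RANGAP1 at 8 h among the genes named in the report. What sets these lines apart was not tested, and the time of auxin, the clone and, for TPR at 2 h against NUP153, NUP50 and RANGAP1 and for the old TPR libraries against RANGAP1, the way of counting cannot be told apart from the tagged protein.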

How the results depend on the processing

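With GANP and both TPR sets all calls were lower under each alternative, apart from 1 higher with TPR at 2 h under the replicate block and 2 higher in the old TPR libraries at 8 h without auxin replicate old2; with NUP153 all were higher, apart from 1 lower at 8 h without untreated replicate 2. Over the 77 genes without exon overlap, counts fell with the number of genes: NXF1 22 (of 38), GANP 49 (of 88), old TPR at 2 h 12 (of 20) and 8 h 32 (of 49), NUP153 at 8 h 6 (of 14), NUP50 at 9 h 6 (of 11), RANGAP1 at 2 h 0 (of 1) and 8 h 13 (of 26), and the parental line 0 (of 1). The GANP median was −0.86 there and −0.78 for the 149 genes chosen by parental level. DESeq2 called 41 with TPR at 2 h, 53 and 84 in the old TPR libraries at 2 h and 8 h, 2 with NUP153 at 2 h, 5 with NUP50 at 3 h and 2 in the parental line. With no filter on low counts these 6 were 44, 74, 90, 2, 7 and 2, and the differences of TPR at 2 h from NUP153, NUP50 and RANGAP1 were 51, 19 and 20 genes.

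With the replicate block 48 genes were called with TPR at 2 h (47 lower, 1 higher), 45 and 88 in the old TPR libraries at 2 h and 8 h, 2 and 3 with NUP153, 7 and 18 with NUP50 at 3 h and 9 h, 3 with RANGAP1 at 2 h and 2 in the parental line. The block gave 87 genes for GANP against TPR, and 89, 32 and 52 for TPR against NUP153, NUP50 and RANGAP1. It moved no other count by over 1.5 times. In the comparisons where the pairing was not borne out, these libraries share only a number.

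With each library left out in turn, counts ranged as follows: NXF1 33 to 44, GANP 83 to 90, TPR at 2 h 4 to 15, old TPR 0 to 25 at 2 h and 0 to 99 at 8 h, NUP153 0 to 1 and 2 to 15, NUP50 1 to 6 and 1 to 14, RANGAP1 1 to 1 and 20 to 32, the parental line 0 to 2, ActD 0 to 0, GANP against TPR 28 to 49, TPR against NUP153 13 to 33, against NUP50 0 to 5 and against RANGAP1 1 to 4, GANP against the parental line 91 to 98, and the old TPR libraries at 8 h against NUP153 56 to 100 and RANGAP1 41 to 88. The median ranged from −0.83 to −0.72 with GANP and from −0.40 to −0.34 with TPR at 2 h.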
